A study of Mus musculus with 23 samples.

Results

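The genes described here are 49 genes of G2 and M phase, chosen by symbol from a list of spindle, kinetochore, condensin and cytokinesis genes and of the kinases and cyclins that drive mitosis. All 49 were found among 48397 gene symbols of the count table, and all 49 passed the filter on low counts in each comparison. RNA was sequenced from sorted cells of Met1-iRFP breast tumours in FVB mice. Met-1 cells come from a mammary tumour of the MMTV-PyMT mouse, in which the polyoma middle T antigen is driven in mammary epithelium, and iRFP, a fluorescent protein in the near infrared, serves to sort them. The groups are cancer cells (iRFP+) of exercised mice (7 libraries), cancer cells of sedentary mice (8 libraries), cells of the tumour microenvironment (TME, iRFP-) of exercised mice (4 libraries) and TME cells of sedentary mice (4 libraries). All groups share the strain and the tumour line. The sources used here do not say how long the mice exercised, how old they were, or that each library is a separate mouse, so that p-values measure the spread between libraries.

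Entry into mitosis is driven by the kinase CDK1 with its cyclins, which Cdc25c activates and which Foxm1, a transcription factor of G2, helps to supply. Condensin and topoisomerase II compact and untangle the chromosomes, kinetochores tie them to spindle microtubules, and a checkpoint holds back the anaphase-promoting complex (APC/C) until all are attached. A contractile ring set up around the spindle midzone then divides the cell. Transcripts of these genes peak in G2 and M phase, so that in tumours their level is widely used as a measure of proliferation.

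Many promoters of such genes carry a cell cycle genes homology region (CHR, TTTGAA) near the start site and CCAAT boxes, the site of NF-Y, upstream of it. RefSeq promoter windows on GRCm38.p6, from 250 bases before to 50 bases after the annotated start, were matched for 38 of the 49 genes. A gene was counted if any of its windows held the motif. TTTGAA was found on either strand for 27 of these 38 genes (71.1%), against 20.2% of 27025 genes with a window. Of the 11177 such genes tested for cancer against TME cells, 14.8% had it. CCAAT was found for 29 of the 38 (76.3%), against 41.1% of all and 42.3% of tested genes. Both motifs stood in the same window for 25 (65.8%), against 7.97% of all and 5.99% of tested genes. For 1 of the 38 genes a TTTGAA and a CCAAT shared bases. The promoters below are those of Hmmr and Cenpf, which had 2 of the largest changes with exercise in cancer cells, of Top2a, the member with the highest level, of Cdk1, whose level differed little between treatments, and of Ube2c, the only member with an unadjusted p under 0.05 and a lower level in exercised cancer cells. Each runs from 150 bases before to 30 bases after the RefSeq start, 5′ to 3′ on the strand of the gene. Capitals mark TTTGAA and CCAAT, with TTCAAA and ATTGG for the opposite strand.
Hmmr, chr11:40733408-40733587, minus strand: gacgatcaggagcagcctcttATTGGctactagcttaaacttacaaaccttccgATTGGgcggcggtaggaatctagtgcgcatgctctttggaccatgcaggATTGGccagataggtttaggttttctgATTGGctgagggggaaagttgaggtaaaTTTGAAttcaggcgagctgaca
Top2a, chr11:99024160-99024339, minus strand: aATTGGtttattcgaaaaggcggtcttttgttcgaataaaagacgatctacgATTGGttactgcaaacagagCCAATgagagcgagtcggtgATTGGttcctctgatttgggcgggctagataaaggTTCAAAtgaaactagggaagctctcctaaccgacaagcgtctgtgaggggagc
Cenpf, chr1:189688057-189688236, minus strand: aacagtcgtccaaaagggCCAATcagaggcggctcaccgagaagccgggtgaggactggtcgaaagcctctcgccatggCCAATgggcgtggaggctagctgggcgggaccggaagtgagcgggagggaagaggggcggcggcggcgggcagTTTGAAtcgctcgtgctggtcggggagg
Cdk1, chr10:69352883-69353062, minus strand: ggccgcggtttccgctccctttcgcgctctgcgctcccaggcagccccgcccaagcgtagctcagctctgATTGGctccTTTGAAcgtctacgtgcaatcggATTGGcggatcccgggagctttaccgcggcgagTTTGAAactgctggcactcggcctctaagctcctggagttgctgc
Ube2c, chr2:164769779-164769958, plus strand: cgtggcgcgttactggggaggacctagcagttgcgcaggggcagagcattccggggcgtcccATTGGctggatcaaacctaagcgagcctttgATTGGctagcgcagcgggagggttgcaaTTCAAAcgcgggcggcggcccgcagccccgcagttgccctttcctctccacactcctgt
All 5 windows hold both motifs. In cancer cells the median log2 change with exercise was 0.17 for the 27 genes with TTTGAA and 0.21 for the 11 without it. It was 0.20 for the 29 genes with CCAAT and 0.12 for the 9 without it. A match of letters is a description and not a bound site.

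Total counts were 20073700 to 25526059 per library in cancer cells of exercised mice, 15924340 to 25563245 in those of sedentary mice, 22682216 to 37388479 in TME cells of exercised mice and 16307545 to 35958441 in those of sedentary mice. Mitochondrial transcripts took 42.2% of the counts of TME sedentary library 4 and 14.5% of library 6, against at most 8.63% in any other library. Summed CPM (counts scaled to a common library size by TMM) of 12 pan-leukocyte markers was 69.8 to 166 and 45.0 to 101 in exercised and sedentary cancer libraries, and 429 to 2500 and 593 to 796 in exercised and sedentary TME libraries. The summed CPM of the epithelial markers overlapped between the sorts. It was 279 to 403 and 324 to 543 in exercised and sedentary cancer libraries. In exercised and sedentary TME libraries it was 230 to 449 and 304 to 526. Single markers differed, with log2 changes of -2.81 to 0.44, cancer over TME, among the 5 tested. Of these 5 edgeR called 1 higher in cancer cells, against 27.3% of all genes, and 1 lower, against 25.3%. Krt8, Krt19, Cldn4 and Elf5 were each at 0 in at least 1 library of cancer cells, Epcam was at 0.61 to 2.25 CPM there, and Krt18 (mean 71.0 and 92.7 CPM in exercised and sedentary cancer cells) and Wfdc2 (265 and 331 CPM) carried most of that sum. The iRFP- sort held RNA of these 2 genes at a level like that of the cancer sort. It was 54.7 and 74.0 CPM of Krt18, and 263 and 361 CPM of Wfdc2, in exercised and sedentary TME cells. The log2 change with exercise in TME cells was above 0 for 36 mitosis genes with and without the epithelial marker level as a covariate. In both fits 0 mitosis genes were called. The part of this RNA in the level of the mitosis genes, or in their difference between sorts, was not tested. The annotated spans of 7 members (Ccna2, Cdc20, Cdca8, Ncapg, Nusap1, Prc1 and Tacc3) overlap a gene on the other strand with at least 100 counts in some library. No strand setting of the counting is known here, so reads from any shared exons cannot be told apart. Whether exons are shared was not tested.

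The mitosis genes were well expressed in every library of both sorts. The mean log2 CPM of the 49 genes was 6.62 ± 0.18 in cancer cells of exercised mice (SD, n = 7; lowest 6.27, median 6.66, highest 6.84) and 6.41 ± 0.13 in those of sedentary mice (n = 8; lowest 6.28, median 6.35, highest 6.59). It was 6.06 ± 0.24 in TME cells of exercised mice (n = 4; 5.72 to 6.24) and 5.97 ± 0.18 in those of sedentary mice (n = 4; 5.83 to 6.23). Every cancer library lay above every TME library, while the treatments overlapped within each sort. Summed over the genes, 7080 ± 850 and 5936 ± 601 CPM fell on mitosis transcripts in exercised and sedentary cancer cells, and 4577 ± 645 and 4328 ± 577 CPM in exercised and sedentary TME cells. In bulk samples, fewer cycling cells and less RNA per cycling cell cannot be told apart.

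**Figure D1:**
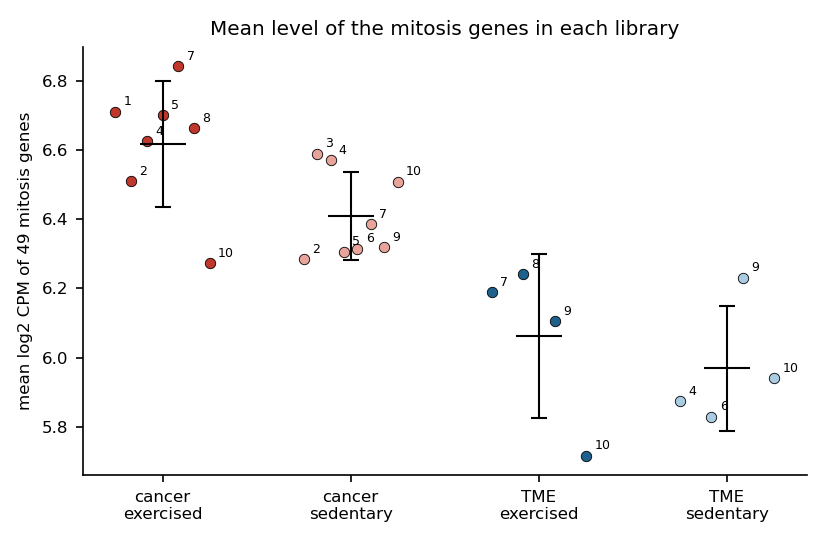
Mean log2 CPM of the 49 mitosis genes (y axis, prior count of 2) in each library (points, with the library number of the labels), by group; long bars are means and whiskers are SD. Cancer libraries lie between 6.27 and 6.84, and TME libraries between 5.72 and 6.24.

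Within a group the genes moved together across libraries. Cancer exercise library 10 had the lowest value of its group for 41 of the 49 genes and lay above the median of the 15 cancer libraries for 4, whereas library 7 had the highest value of its group for 32 and lay above that median for 48. Among TME cells, exercise library 10 was the lowest of its group for 43 genes, and sedentary library 9 the highest of its group for 40. The median coefficient of variation of a gene was 14.1% and 14.2% in exercised and sedentary cancer cells, and 19.0% and 15.2% in exercised and sedentary TME cells.

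Per kilobase of transcript, Top2a, the topoisomerase that untangles sister chromatids, had the highest level of the 49 genes, with a mean of 207 CPM per kilobase over the 23 libraries. Birc5, the survivin subunit of the chromosomal passenger complex, followed with 192, Ube2c, the ubiquitin-conjugating enzyme of the APC/C, with 152, and the condensin ATPase gene Smc4 with 92.3. The contractile ring scaffold Anln had 72.6, the centromeric histone Cenpa 63.4 and the cyclin Ccnb2 58.5 CPM per kilobase. The spindle protein Tacc3 led its group with 40.6. The kinase Pbk led the group of other mitotic kinases, which leaves out Cdk1 (44.3), with 29.96. The lowest were Aspm at 7.31, Cdca2 at 7.74 and Ckap2 at 10.1 CPM per kilobase. These are levels and not differences.

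In cancer cells, exercise went with slightly higher values of most mitosis genes, and no gene of them passed the threshold of edgeR's quasi-likelihood test. The log2 change, exercised over sedentary, was above 0 for 45 of 49 genes, against 47.4% of the 15096 genes tested, and its median was 0.19, against -0.01 for all genes. At an adjusted p under 0.05, 0 of 49 were called, as were 0.0% of all genes in either direction. At an unadjusted p under 0.05, 24 were higher, against 5.92% of all genes, and 1 was lower, against 6.67%. DESeq2 called 5 genes higher (Hmmr, Dlgap5, Cenpf, Mki67 and Top2a), against 0.464% of all genes, and limma voom called these and Cenpe, Smc2 and Cdca2, against 0.702%. Neither called a member lower, against 0.603% of all genes by DESeq2 and 0.596% by voom. The 49 genes share the libraries and move together in them, so that their counts are not independent of each other. They were also chosen with earlier results of these data known. No comparison with the share of all genes, here or below, is free of that choice. Markers of other cell types differed with exercise in the cancer sort as well, where edgeR called 0 of them at an adjusted p under 0.05. Of 10 macrophage markers, 5 were higher at an unadjusted p under 0.05 and 0 lower, with a median log2 change of 0.56 and 2 calls by DESeq2 (Adgre1 and Clec10a), and their summed CPM was 90.6 to 182 in exercised and 78.6 to 113 in sedentary mice. Of 12 pan-leukocyte markers, 3 were higher at that p (median 0.48). Of 9 fibroblast markers, 3 were lower (median -0.26, summed CPM 913 to 1150 in exercised and 1040 to 1260 in sedentary mice). Of 5 endothelial markers tested, 1 was lower (Cdh5, also called by DESeq2, with a list median of -0.32), and the summed CPM of all 9 listed was 7.04 to 11.6 in exercised and 11.1 to 15.2 in sedentary mice, where Tek and Robo4 were at 0 in at least 1 library of each group. All 5 epithelial markers tested were below 0 (median -0.32), and 2 of them, Krt18 and Wfdc2, were lower at that p. Beyond the fit with the pan-leukocyte level given further on, the part of these markers in the values of the mitosis genes was not tested.

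The groups of genes differed in size of change. All 8 spindle genes were above 0, with a median log2 change of 0.28 and 7 at an unadjusted p under 0.05. All 8 genes of condensin and chromosome structure were also above 0, with a median of 0.29 and 7 under that p. The 4 cytokinesis genes had a median of 0.21 (3 under that p) and the 6 kinetochore and centromere genes of 0.16 (3 under that p). In the spindle checkpoint and APC/C group the median was 0.15, with 1 gene higher and 1 lower among 6. The CDK1 switch (0.09, 1 of 7), the other mitotic kinases (0.08, 2 of 6) and the chromosomal passenger complex (0.06, 0 of 4) had the smallest medians. Differences between these groups of genes were not tested.

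Hmmr, a hyaluronan receptor that also binds spindle microtubules (GRCm38 chr11:40701395-40733422), had the smallest p. Its level was 62.4 to 104 CPM (median 92.7) in cancer cells of exercised mice and 50.8 to 74.8 CPM (median 58.7) in those of sedentary mice. The groups overlapped through exercise library 10 alone, and 7 of 7 exercised libraries lay above the sedentary mean. The log2 change was 0.48 ± 0.10 (SE; edgeR adjusted p = 0.0804, DESeq2 adjusted p = 0.00433, and 0.00433 to 0.999 over the alternatives tried).

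Dlgap5, which stabilises microtubules at kinetochores (chr14:47387779-47418407), was the only member whose groups did not overlap, as also held for 0.298% of all genes with the exercised libraries higher and 0.053% with them lower. It had 66.7 to 100.3 CPM (median 74.6) in exercised and 50.9 to 64.4 CPM (median 60.1) in sedentary libraries. The log2 change was 0.39 ± 0.08 (edgeR adjusted p = 0.0822, DESeq2 0.00751, and 0.00751 to 0.999 over the alternatives). The lowest exercised library, 2, thus stood just above the highest sedentary library, 7.

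Cenpf, a large protein of the outer kinetochore, had 161 to 252 CPM (median 218) in exercised and 123 to 201 CPM (median 138) in sedentary cancer cells, with a log2 change of 0.43 ± 0.11 (edgeR adjusted p = 0.128). Mki67, which coats mitotic chromosomes and gives the proliferation marker Ki-67, had 194 to 267 CPM (median 237) and 143 to 215 CPM (median 186), with a change of 0.34 ± 0.09 (edgeR adjusted p = 0.133). Top2a had 1035 to 1678 CPM (median 1423) and 915 to 1296 CPM (median 968), with a change of 0.38 ± 0.11 (edgeR adjusted p = 0.166). For each of the 3 genes the groups overlapped, and at least 6 of 7 exercised libraries lay above the sedentary mean. Over the alternatives the smallest adjusted p was 0.0215 for Cenpf, 0.0233 for Mki67 and 0.0342 for Top2a, and the largest 0.999 for each.

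The other genes of the 12 with the smallest p had smaller changes. Anln had 392 to 575 CPM (median 447) in exercised and 311 to 432 CPM (median 365) in sedentary libraries, a log2 change of 0.29 ± 0.08 (edgeR adjusted p = 0.180). Cenpe, the kinesin that moves chromosomes to the spindle equator, had 186 to 294 CPM (median 244) and 154 to 245 CPM (median 181), a change of 0.33 ± 0.10 (adjusted p = 0.208). Ranges overlapped for each of these and for the next 5. These 5 were Tpx2, an activator of Aurora A (0.29 ± 0.08), the condensin genes Ncaph (0.23 ± 0.07) and Smc2 (0.29 ± 0.10), the phosphatase-targeting gene Cdca2 (0.30 ± 0.10) and the spindle gene Ckap2l (0.27 ± 0.09), with edgeR adjusted p between 0.199 and 0.241.

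The other 12 genes above 0 with an unadjusted p under 0.05 had log2 changes of 0.18 to 0.34 and edgeR adjusted p of 0.306 to 0.393. They were the spindle genes Aspm, Ckap2 and Nusap1, the condensin genes Ncapg and Smc4, the cytokinesis genes Prc1 and Ect2, the kinases Melk, Nek2 and Bub1, the centromeric histone gene Cenpa and the CDK1 phosphatase gene Cdc25c. Aspm (0.34 ± 0.13) had the largest SE of these 12, with 67.1 to 111 CPM (median 101) in exercised and 54.4 to 108 CPM (median 67.1) in sedentary cancer cells. The cyclin genes Ccna2 (0.20 ± 0.10) and Ccnb1 (0.19 ± 0.09) had unadjusted p of 0.0647 and 0.0555, and Ccnb2 (0.07 ± 0.09) of 0.473. Of the 3 subunits of the NDC80 complex listed, Ndc80, Nuf2 and Spc25 had changes of 0.07 ± 0.10, 0.06 ± 0.14 and 0.11 ± 0.10, smaller in value than those of the large kinetochore proteins Cenpf and Cenpe.

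The 4 genes with a change below 0 were Ube2c, Cdk1, Plk1 and Cdca3. Ube2c had 110 to 161 CPM (median 148) in exercised and 116 to 199 CPM (median 170) in sedentary cancer cells, and no exercised library lay above the sedentary mean. Its log2 change was -0.28 ± 0.10 (unadjusted p = 0.0118, edgeR adjusted p = 0.277). Cdk1, the kinase of mitotic entry, had 147 to 231 CPM (median 213) and 167 to 225 CPM (median 208), a change of -0.01 ± 0.09. Plk1, the polo kinase, had -0.07 ± 0.16, and Cdca3, which takes part in the turnover of a CDK1 inhibitor, -0.07 ± 0.10. Aurkb and Birc5, of the chromosomal passenger complex, each had a log2 change of 0.01.

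**Figure D2:**
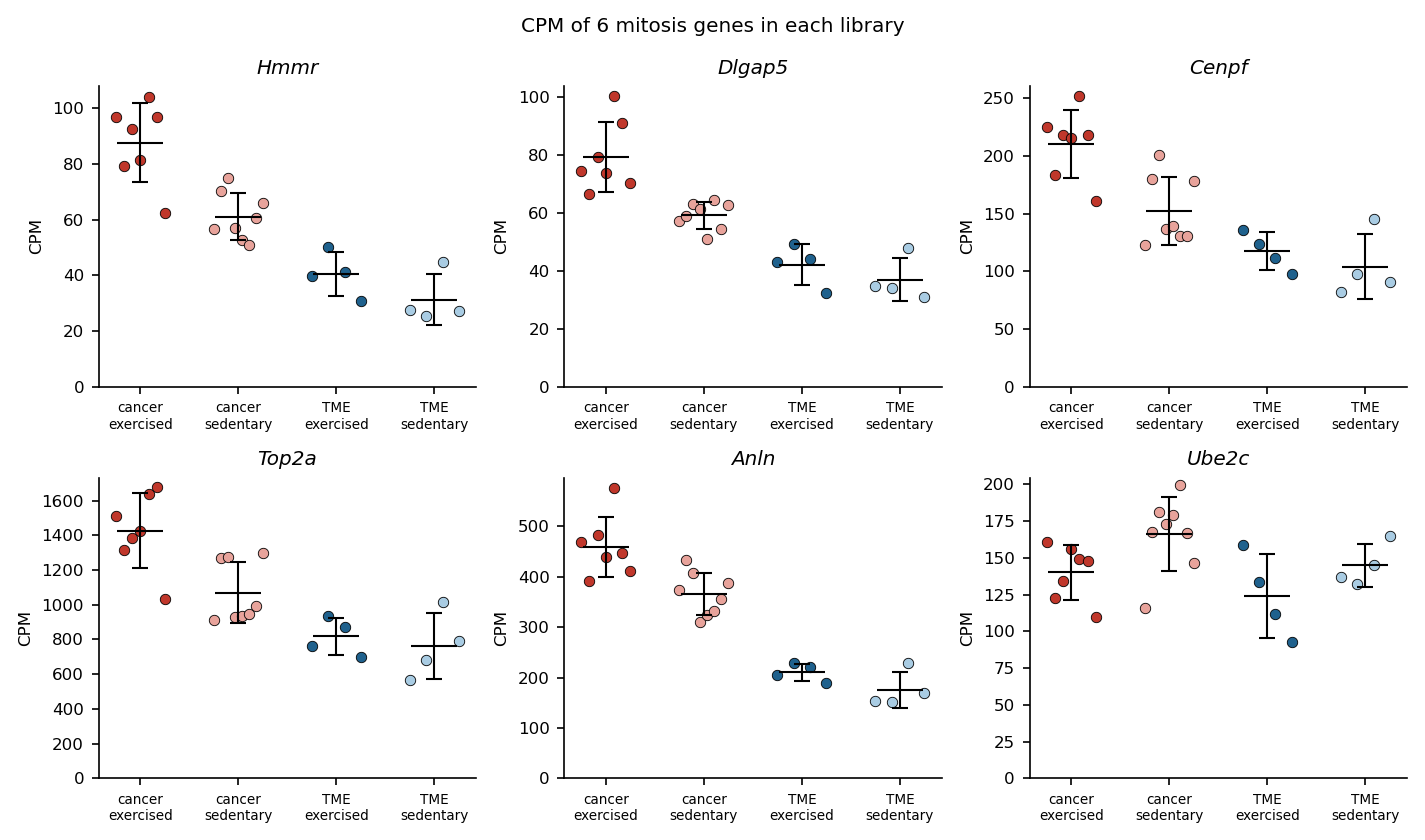
CPM of 6 mitosis genes (y axes, from 0) in each library (points) by group, with means (long bars) and SD (whiskers). For Hmmr, Dlgap5, Cenpf, Top2a and Anln the exercised cancer libraries are centred above the sedentary ones, and for Ube2c below them.

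**Figure D3:**
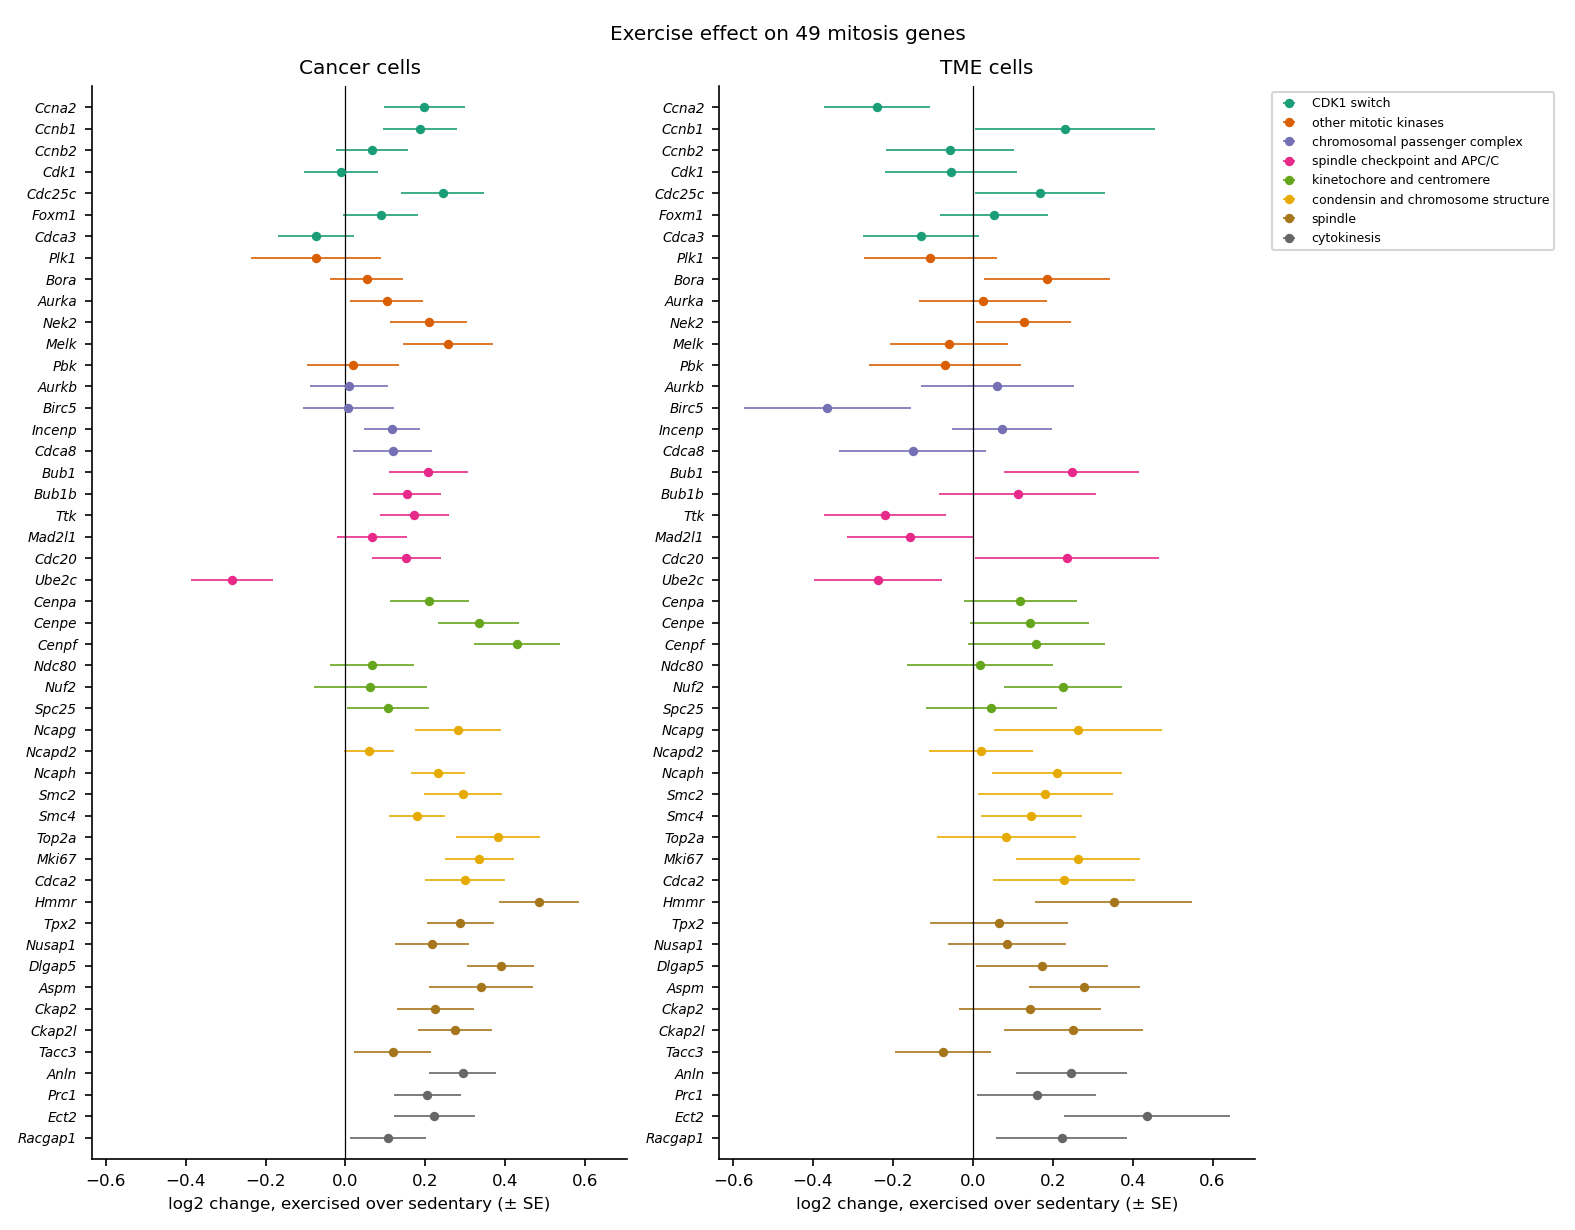
Log2 change of each mitosis gene, exercised over sedentary, ± SE of the edgeR fit (x axis), in cancer cells (left) and TME cells (right), coloured by group of genes. In cancer cells 45 of 49 points lie above 0, and in TME cells 36 of 49.

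The cancer libraries that stood apart were left out in turn. Calls by edgeR were 1 (Hmmr) without cancer exercise library 10, where 2 of all 15328 genes were called higher and 4 lower. They were 3 (Hmmr, Dlgap5 and Cenpf) without cancer sedentary library 4, where 25 of all 15046 genes were called higher and 18 lower. The median change of the members lay between 0.15 and 0.24 over the 15 omissions. Pan-leukocyte markers were highest in cancer exercise library 8 (summed CPM 166). With their level as a covariate the median change was 0.23 and 46 of 49 genes were above 0.

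In TME cells no mitosis gene was called by exercise. Of the 49 genes, 36 were above 0, against 51.3% of 16273 genes tested, with a median log2 change of 0.12, against 0.01 for all genes. By edgeR 0 of 49 passed an adjusted p under 0.05 (0.0% of all genes in either direction) and 0 an unadjusted p under 0.05 (4.93% of all genes higher, 3.51% lower), and DESeq2 (0.16% of all genes higher, 0.0861% lower) and limma voom (0.0%) called 0. The groups overlapped for every member, against 1.96% of all genes without overlap as higher and 1.79% as lower. Without the TME sedentary libraries 4 and 6, whose mitochondrial share was high, the median was 0.01 with 28 genes above 0. It was 0.22 without TME exercise library 10 or without TME sedentary library 9, and 0.08 without TME exercise library 8. With the library number as a block, which rests on 2 numbers found in both treatments, the direction turned, with a median of -0.185 and 9 of 49 genes above 0.

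The smallest p was that of Ect2, the exchange factor that activates RhoA at the division plane. Libraries 7, 8, 9 and 10 of exercised mice had 44.0, 55.5, 66.3 and 41.8 CPM of Ect2, and libraries 4, 6, 9 and 10 of sedentary mice 31.7, 33.6, 55.9 and 30.3 CPM. All exercised libraries exceeded 3 of the sedentary ones, and sedentary library 9 stood among them. The log2 change was 0.44 ± 0.21 (edgeR adjusted p = 0.589, and 0.167 to 0.990 over the alternatives).

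Hmmr had 39.9, 50.0, 41.1 and 30.9 CPM in TME cells of exercised mice (libraries 7, 8, 9 and 10) and 27.6, 25.6, 44.9 and 27.2 CPM in those of sedentary mice (libraries 4, 6, 9 and 10), a change of 0.35 ± 0.20 (edgeR adjusted p = 0.600). Sedentary library 9 again lay within the exercised range. Anln (0.25 ± 0.14), Aspm, which keeps spindle poles focused (0.28 ± 0.14), Mki67 (0.26 ± 0.16), Nuf2 of the NDC80 kinetochore complex (0.23 ± 0.15), the checkpoint kinase Bub1 (0.25 ± 0.17) and Ckap2l (0.25 ± 0.17) were the others above 0 among the 12 with the smallest p. Those below 0 were Birc5 (-0.36 ± 0.21), the cyclin Ccna2 (-0.24 ± 0.13), Ube2c (-0.24 ± 0.16) and the checkpoint kinase Ttk (-0.22 ± 0.15). The edgeR adjusted p of these 10 genes was 0.590 to 0.657. Leukocyte marker sums were 2400 and 2500 CPM in TME exercise libraries 8 and 9, above every other library. With this level as a covariate the median change of the mitosis genes was 0.08 with 31 above 0. Other cell type markers also differed with exercise in the TME sort, where edgeR called 0 of them at an adjusted p under 0.05. All 10 macrophage markers were above 0 (median 1.13), 5 of them at an unadjusted p under 0.05, against 4.93% of all genes higher. All 9 endothelial markers were below 0 (median -1.08), 2 of them at that p, against 3.51% lower. The part of macrophage and endothelial markers in the mitosis values was not tested.

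The exercise effect was not shown to differ between the sorts. In the fit on all 23 libraries 0 of 49 genes passed for the difference of effects, cancer minus TME (0.0% of all 17503 genes), and DESeq2 (0.00571% of all genes in each direction) and limma voom (0.0971% higher, 0.109% lower) called 0 of them. At an unadjusted p under 0.05, 2 genes were higher in this difference, against 3.34% of all genes, and 0 lower, against 4.18%. Ccna2 had a difference of 0.46 ± 0.18 log2 (edgeR adjusted p = 0.591, and 0.227 to 0.940 over the alternatives). In the separate fits its change was 0.20 ± 0.10 in cancer cells and -0.24 ± 0.13 in TME cells. Ttk had 0.41 ± 0.17 (adjusted p = 0.591), with 0.17 ± 0.09 in cancer cells and -0.22 ± 0.15 in TME cells. For Hmmr, Anln and Ube2c both sorts had a change of the same sign. The median difference over the 49 genes was 0.08, with 40 above 0, against 48.3% of all genes, and it was -0.03 without TME exercise library 10 and -0.03 without TME sedentary library 9.

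Most mitosis genes were higher in the cancer sort. By edgeR 38 of 49 were higher in cancer cells than in TME cells, against 27.3% of the 17503 genes tested, and 1 was lower, against 25.3%. The median log2 change was 0.48, against 0.01 for all genes, and 44 of 49 were above 0, against 50.6%. For 11 genes every cancer library exceeded every TME library, against 4.35% of all genes, and for 0 the reverse held, against 5.19%. Every gene was nevertheless detected in each TME library.

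All 4 cytokinesis genes were higher in cancer cells (median 0.97 log2), as were all 8 spindle genes (0.52) and all 6 kinetochore and centromere genes (0.47). So were 7 of 8 genes of condensin and chromosome structure (0.55), 5 of 6 other mitotic kinases (0.42), 4 of 6 genes of the spindle checkpoint and APC/C (0.65) and 4 of 7 of the CDK1 switch (0.28). Of the chromosomal passenger complex 0 of 4 were higher and 1 lower, with a median of -0.15. The 10 genes that were not called were Ccnb2, Cdk1, Cdca3, Bora, Aurkb, Birc5, Cdca8, Cdc20, Ube2c and Ncapd2.

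Ect2 had the largest change, 1.36 ± 0.12 log2 (edgeR adjusted p = 5.67e-10). Its level was 86.1 to 147 CPM (median 130) in cancer cells of exercised mice and 79.9 to 128 CPM (median 103) in those of sedentary mice, above the 30.3 to 66.3 CPM of the TME libraries given before. Anln, the gene with the smallest p, was at 1.09 ± 0.08 (adjusted p = 4.33e-11). It had 205, 228, 220 and 188 CPM in TME libraries 7, 8, 9 and 10 of exercised mice and 153, 151, 228 and 169 CPM in libraries 4, 6, 9 and 10 of sedentary mice, all below the lowest cancer library at 311 CPM.

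Prc1, which bundles the microtubules of the midzone, and Racgap1, a subunit of centralspindlin, completed the cytokinesis genes at 0.85 ± 0.08 and 0.77 ± 0.10. Hmmr was at 1.03 ± 0.11 and Dlgap5 at 0.79 ± 0.09. The condensin genes Smc2 and Smc4 had 0.86 ± 0.10 and 0.67 ± 0.07, the checkpoint kinase Bub1 0.94 ± 0.10 and Cenpe 0.75 ± 0.10. Foxm1 (0.70 ± 0.09) and Cdc25c (0.79 ± 0.10) led the CDK1 switch by p. The edgeR adjusted p of these genes was at most 1.89e-07, and each lay above the TME mean in 15 of 15 cancer libraries.

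Further checkpoint, kinetochore and cyclin genes were also higher in cancer cells. The cyclin Ccnb1 was at 0.87 ± 0.12, with 87.5 to 132 CPM in exercised and 88.2 to 129 CPM in sedentary cancer cells, and 42.7 to 79.2 and 43.5 to 79.5 CPM in exercised and sedentary TME cells. Ttk (0.65 ± 0.09), Mad2l1 (0.64 ± 0.09) and Bub1b (0.72 ± 0.10), which hold back anaphase, were close to each other in size. Cenpf had 0.69 ± 0.11, and the NDC80 complex genes Nuf2, Spc25 and Ndc80 had 0.55 ± 0.12, 0.38 ± 0.10 and 0.37 ± 0.10. Ncapg of condensin I was at 0.96 ± 0.12, whereas its partner Ncaph was at 0.29 ± 0.08 and Ncapd2 at 0.14 ± 0.06 (edgeR adjusted p = 0.0507). Top2a and Mki67, markers of proliferation, were at 0.64 ± 0.10 and 0.34 ± 0.09.

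Groups without overlap were those of Ccnb1, Cdc25c, Foxm1, Ttk, Smc4, Hmmr, Dlgap5, Anln, Prc1, Ect2 and Racgap1. Among the genes not called, Cdk1 had 147 to 231 and 167 to 225 CPM in exercised and sedentary cancer cells, and 122 to 214 and 172 to 187 CPM in exercised and sedentary TME cells, a change of 0.19 ± 0.09 (edgeR adjusted p = 0.0754). Birc5 had 140 to 229 and 131 to 210 CPM in exercised and sedentary cancer cells, and 124 to 259 and 198 to 247 CPM in exercised and sedentary TME cells, a change of -0.18 ± 0.11 (adjusted p = 0.200). The ranges of the sorts overlapped for both genes.

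Incenp, the scaffold that activates Aurora B, was the gene that was lower in cancer cells. It had 72.1 ± 5.40 and 64.9 ± 4.75 CPM in exercised and sedentary cancer cells (SD, n = 7 and 8), and 83.3 ± 8.85 and 78.5 ± 9.98 CPM in exercised and sedentary TME cells (SD, n = 4 each). The groups overlapped, and 0 of 15 cancer libraries lay above the TME mean. The log2 change was -0.24 ± 0.06 (edgeR adjusted p = 0.00208, and 3.89e-05 to 0.0250 over the alternatives).

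Without the TME sedentary libraries 4 and 6, 31 genes were higher and 1 lower. Of all 18669 genes tested in that fit 3547 were higher and 4460 lower, against 4773 and 4428 of 17503 with all libraries. The 7 genes lost were Ccna2, Cenpa, Ncaph, Ndc80, Plk1, Spc25 and Tacc3, and none was gained. The median change was then 0.35.

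**Figure D4:**
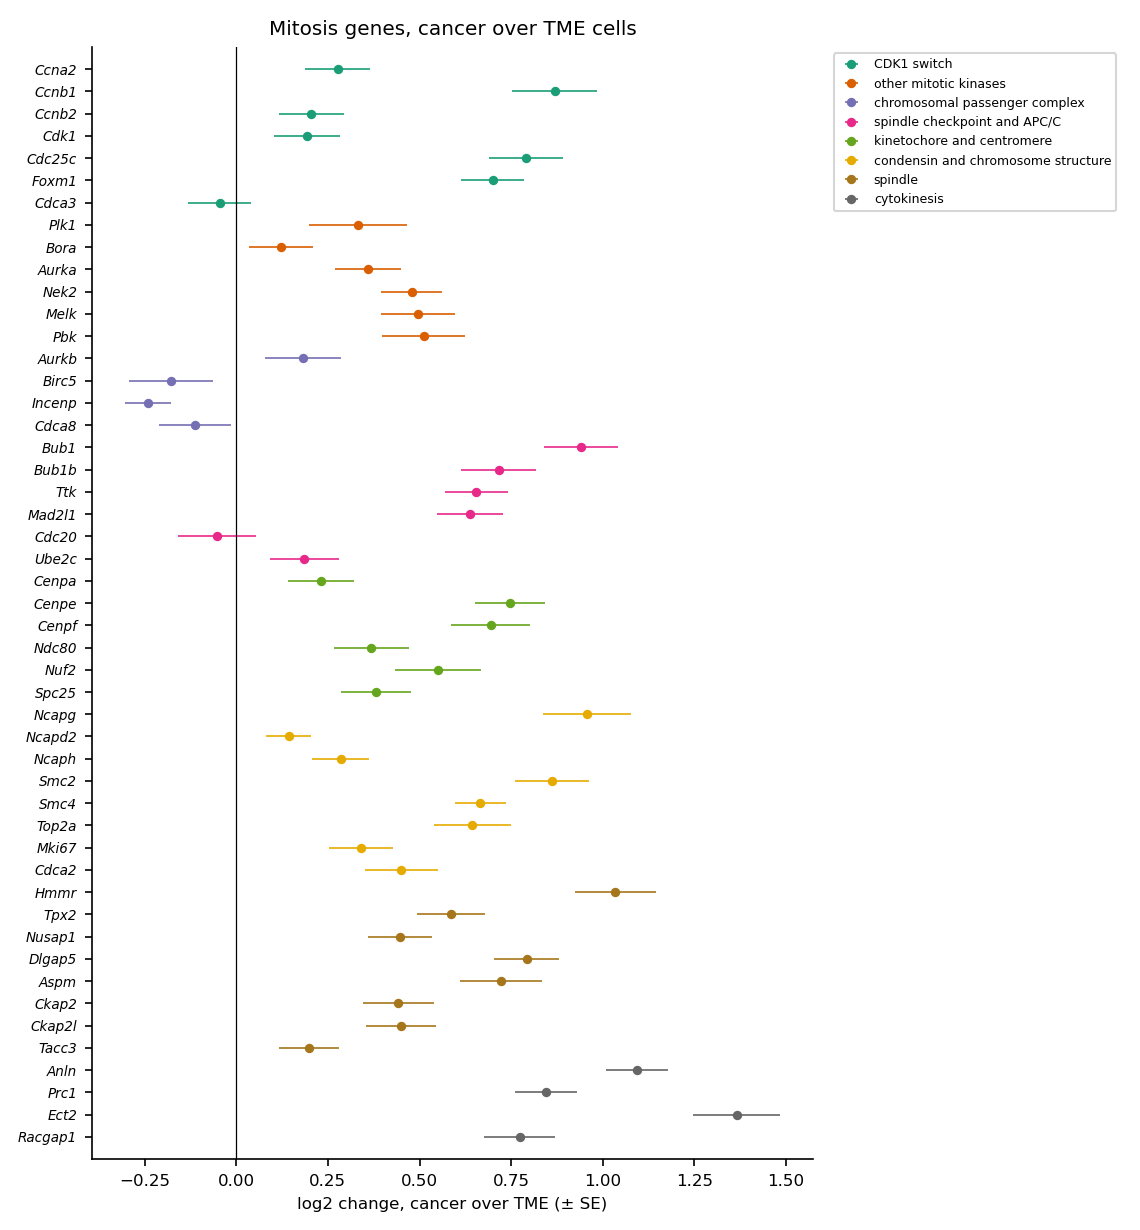
Log2 change of each mitosis gene, cancer over TME cells, ± SE of the edgeR fit (x axis), coloured by group of genes. Of 49 points 44 lie above 0, with Ect2 at 1.36 farthest right and Incenp at -0.24 farthest left.

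Other genes of the cell cycle give the setting of these values. Their counts stand against the shares of all genes tested, which at an unadjusted p under 0.05 were 5.92% higher and 6.67% lower by exercise in cancer cells, and at an adjusted p under 0.05 were 27.3% higher and 25.3% lower between sorts. Of 12 mitotic kinesins, edgeR called 0 by exercise in cancer cells, and 7 had an unadjusted p under 0.05, all higher. The median was 0.23. Kif20b, a kinesin of late cytokinesis, had 44.6 ± 3.98 and 33.6 ± 5.61 CPM in exercised and sedentary cancer cells (0.37 ± 0.10, edgeR adjusted p = 0.130). Between sorts 10 of these 12 kinesins were higher in the cancer sort, against 27.3% of all genes, and 0 lower (median 0.49), led by Kif18a, which dampens chromosome movement (1.03 ± 0.10), and the chromokinesin Kif4 (0.94 ± 0.11).

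Of 55 further mitosis genes tested, edgeR called 0 by exercise in cancer cells, and 10 had an unadjusted p under 0.05, all higher. The median was 0.10. Depdc1a had a log2 change of 0.28 ± 0.09 (edgeR adjusted p = 0.230). Between sorts 39 of the 55 were higher in cancer cells, against 27.3% of all genes, and 4 lower, against 25.3% (median 0.40), led by the condensin II gene Ncapg2 (1.23 ± 0.12).

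Of 16 core genes of the APC/C, edgeR called 0 by exercise in cancer cells. There 2 had an unadjusted p under 0.05 as higher and 2 as lower, among them Cdc27 (0.29 ± 0.07) and Anapc11 (-0.18 ± 0.07), with a median of 0.08. Between sorts 4 were higher in cancer cells, with Cdc27 at 0.81 ± 0.08 and Anapc1 at 0.67 ± 0.08, and 7 were lower, against 27.3% and 25.3% of all genes.

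Of 30 S phase genes, 4 had an unadjusted p under 0.05 as higher and 2 as lower by exercise in cancer cells, against 5.92% and 6.67% of all genes (median 0.05), and the helicase gene Mcm3 (0.20 ± 0.08) and the cyclin Ccne2 (-0.29 ± 0.12) had the smallest p. Between sorts 19 of the 30 were higher in cancer cells, against 27.3% of all genes, and 1 lower, against 25.3% (median 0.36). Rrm2 and Rrm1, the subunits of ribonucleotide reductase, were at 1.03 ± 0.09 and 0.88 ± 0.10. G1 cyclins, CDKs and CDK inhibitors had a median of -0.07 over 13 genes tested by exercise in cancer cells, with Rbl1 at 0.33 ± 0.11 and Cdk4 at -0.23 ± 0.08, and of -0.06 over 14 genes between sorts, with 5 higher and 4 lower, against the same 27.3% and 25.3%. In each of these 5 lists edgeR called 0 genes for exercise in either sort. In cancer cells DESeq2 called 1 kinesin, 1 further mitosis gene and 1 APC/C core gene, and limma voom 2, 2 and 1. The shares of all genes there were 0.464% higher and 0.603% lower by DESeq2, and 0.702% and 0.596% by voom. In the S phase and G1 lists, and in all 5 lists in TME cells, both called 0.

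In TME cells, where 4.93% of all genes were higher and 3.51% lower at an unadjusted p under 0.05, the same lists had median changes with exercise of 0.20 for the kinesins, 0.02 for the further mitosis genes, -0.01 for the APC/C core, 0.01 for S phase and -0.04 for the G1 list. An unadjusted p under 0.05 was found for 1 kinesin, Kif18a (0.44 ± 0.18), and for 3 further mitosis genes, all higher, among them Knl1, the kinetochore scaffold (0.51 ± 0.22), and Hjurp, the chaperone of the centromeric histone (0.26 ± 0.11). In the APC/C list it was found for its coactivator Fzr1 (-0.30 ± 0.13), in the G1 list for Rbl2 (0.47 ± 0.21) and in the S phase list for 0 genes, where the chromatin assembly gene Chaf1b had -0.31 ± 0.19. The edgeR adjusted p of these genes was 0.586 to 0.634. For the difference between sorts 0 genes of the 5 lists passed, and the smallest p were those of Fzr1 (0.30 ± 0.14, edgeR adjusted p = 0.644) and Sgo2a, which protects centromere cohesion in meiosis (0.36 ± 0.17, adjusted p = 0.659).

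The change of a mitosis gene was larger where its coding sequence was longer. Over the 49 genes, Spearman's rho of log2 change and coding length was 0.66 for exercise in cancer cells, 0.55 for exercise in TME cells and 0.51 for cancer against TME cells. Over all tested coding genes it was 0.27, 0.12 and 0.22 in the same order, over 12321, 13114 and 13476 genes. These are correlations across genes of the same libraries, and genes are not independent replicates.

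Split at the median coding length of 1926 bases, the 24 longer genes had a median change with exercise in cancer cells of 0.28 with 19 higher at an unadjusted p under 0.05, and the 25 shorter ones 0.10 with 5. Of all genes, of any length, 5.92% were higher at that p, and this share was not split by length. Cenpf, Mki67, Aspm and Cenpe, the longest at 7413 to 9531 coding bases, had 0.43, 0.34, 0.34 and 0.33, and Ube2c and Birc5, at 537 and 420 bases, -0.28 and 0.01. Relative to all tested genes of like coding length (10 bins), the median was 0.16 with 45 of 49 above 0 in cancer cells, 0.09 with 34 above 0 in TME cells, and 0.44 with 45 above 0 between sorts. The part of transcript length in the changes was not tested further.

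**Figure D5:**
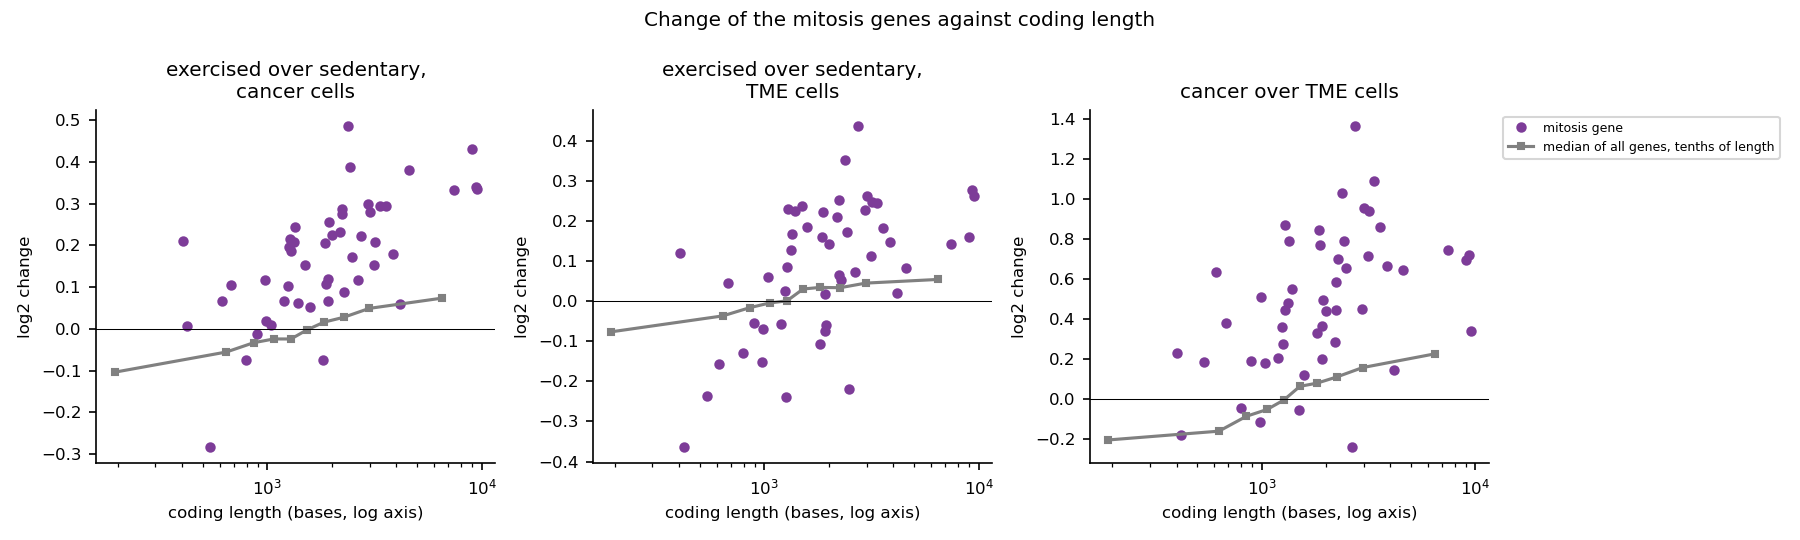
Log2 change (y axes) of each mitosis gene (points) against coding length in bases (x axes, log scale), for exercise in cancer cells, exercise in TME cells and cancer over TME cells; grey squares are medians of all tested genes in 10 bins of coding length. The grey medians also rise with length in the 3 panels, and most mitosis genes lie above them.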

How the data were processed

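The authors deposited raw read counts per gene symbol for 23 libraries. STAR, featureCounts and the mm10 build are named in the submitters' processing notes, with no version, annotation or strand setting. Trizol RNA and the KAPA Standard mRNA-Seq kit were used, per the labels. No columns were left out.

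Counts were tested in R 4.3.3 with edgeR 4.0.16 (TMM, filterByExpr, robust quasi-likelihood test, two-sided, Benjamini-Hochberg adjustment over all tested genes, threshold 0.05). Exercise was fitted within each sort, and cancer against TME cells (mean of both treatments) and the difference of effects on all libraries. CPM is TMM-scaled over all libraries, and levels use a prior count of 2. Means are ± SD and changes ± SE. The script was tested on simulated data.

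Members, role groups and lists were chosen with earlier results of these data known. Named are the 12 members with the smallest p in each comparison, the highest member per kilobase of each role group and the 2 genes with the smallest p of each other list. Further members named were chosen after their values were seen. This rule also names 1 gene that is not reported here. Levels per kilobase and coding lengths use the GENCODE M21 transcript with the longest coding sequence. Of the list symbols, 4 were matched through RefSeq synonyms.

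Alternatives were DESeq2 1.42.0, limma 3.58.1 voom with quality weights, RLE scaling, leaving out the filter, keeping genes with a mean CPM of at least 1, a fit on all libraries, marker levels as covariates, 1 surrogate variable (sva 3.50.0), the replicate number as a block, and each library left out. Comparison with genes of like coding length was added after seeing the data.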

Additional observations from a re-analysis of the deposited data

Results flagged for a closer look

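In 11 of 132 groups of libraries tested, mostly those of the named members, the highest or lowest library stood far from the others by Dixon's criterion. Chance meets it in about 1 in 20 independent groups. The genes move together in the same libraries, so that the flags are not independent of each other. In cancer exercise library 10, Bub1 was at 54.0 CPM (nearest library 81.5), Ect2 at 86.1 (121) and Ncaph at 48.8 (55.4). In cancer sedentary library 4, Racgap1 was at 309 CPM (244). In TME exercise library 10, Cdca2 was at 18.1 CPM (28.5) and Smc4 at 247 (320.0). In TME sedentary library 6, Ccnb2 was at 67.2 CPM (86.5). In TME sedentary library 9, Ect2 was at 55.9 CPM (33.6), Hmmr at 44.9 (27.6), Nuf2 at 55.0 (43.0) and Racgap1 at 174 (121).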

How the results depend on the processing

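For exercise in cancer cells, where edgeR called 0 members, the number called higher was 5 with DESeq2, 8 with limma voom, 2 with no filter on low counts and 9 with 1 surrogate variable, and 0 to 3 with each library left out. Of all 15096 genes, 70, 106 and 104 were called higher with DESeq2, voom and the surrogate variable. The number was 18 of 30298 with no filter, and 0 to 25 with each library left out. The median change of the members was 0.15 to 0.24 with each library left out there, 0.0766 to 0.221 for exercise in TME cells and 0.385 to 0.502 for cancer against TME cells. In the last comparison 34 to 41 members were called higher and 1 to 2 lower, with 2 lower without TME exercise library 9 or 10. Of the 17358 to 18021 genes tested in these fits, 3879 to 4860 were called higher and 4279 to 4885 lower. The median of the difference between effects lay between -0.0343 and 0.134. The labels do not say that library numbers pair mice, and same-numbered libraries correlated at -0.066 to 0.093 between treatments in cancer cells (5 pairs), 0.01 and 0.235 in TME cells and -0.06 to 0.243 between sorts. The last range holds 3 pairs from exercised mice at 0.144, 0.243 and 0.178, with the pairs from sedentary mice at 0.05 or less. The best match was with its own number for 1 of 10, 1 of 4 and 7 of 14 libraries, and whether the numbers mark the same mouse in both sorts is not known. With the number as a replicate block, the median for exercise in TME cells was -0.185 and 9 of 49 members were above 0, against 36 without the block. Of the genes named for that comparison, Aspm (-0.00905), Mki67 (-0.0289), Nuf2 (-0.0552) and Ckap2l (-0.185) changed sign there. That block rests on 2 numbers found in both treatments, 9 and 10. The mean log2 CPM of the members was 6.10 in TME exercise library 9 and 6.23 in TME sedentary library 9. It was 5.72 in TME exercise library 10 and 5.94 in TME sedentary library 10. The cause of these differences was not tested. In cancer cells the block gave a median of 0.149 and 0 calls, as for all 15096 genes. Between sorts it gave 35 members higher and 1 lower, against 3829 and 3531 of 17503 genes. The mean level of the members moved by less than 1 SD with a prior count of 0.5 or RLE size factors. Depth was at least 15924340 counts per library, and the median SE of a member was 0.163 log2 for exercise in TME cells and 0.0962 in cancer cells.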
